A study of Equus caballus with 12 samples.

Results

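The Arp2/3 complex and the WAVE complex build branched actin filaments, and 8 of their genes were looked for in pools of horse oocytes: ABI1, ACTR2, ACTR3, ARPC1A, ARPC2, ARPC3, ARPC4 and ARPC5. Their rows were found through the gene names that the study's supplementary files pair with Ensembl identifiers. ABI1 (ENSECAG00000015467), ACTR2 (ENSECAG00000009219), ACTR3 (ENSECAG00000020867), ARPC2 (ENSECAG00000011456) and ARPC3 (ENSECAG00000020416) had such a pair, so 5 of the 8 genes were measured here, among 11425 genes in all. ARPC1A, ARPC4 and ARPC5 had none in the part of those files that was held, and they were not analysed here. Gene positions and sequences were not used here.

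Actin filaments seldom start on their own. The Arp2/3 complex binds the side of an existing filament, and its subunits ACTR2 and ACTR3, which resemble actin, form the start of a branch. ARPC2 and ARPC4 make up the core that touches the mother filament, and ARPC1A, ARPC3 and ARPC5 complete the complex. It is nearly inactive until an activator binds it. One of these is the WAVE complex, in which a WASF protein sits together with ABI1 and further subunits and is released by the GTPase RAC1. In mammalian oocytes, actin filaments move the meiotic spindle, hold it near the cortex and take part in polar body extrusion, and the stored messenger RNA is made before maturation because transcription stops in the grown oocyte.

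The oocytes came from ovaries collected post-mortem, and all groups were matured in vitro, freed of their cumulus cells and selected for a visible polar body. FR oocytes (n = 5 pools) were fresh and never cooled. VMAT oocytes (n = 3) were matured and denuded first, then vitrified and warmed. VIM oocytes (n = 4), which the deposited labels call VGV, were vitrified while immature, at the germinal vesicle stage and within their corona radiata, then warmed and matured. The labels give an average of 23 oocytes per pool and a 3′ transcriptome kit. A pool holds only oocytes that survived and reached maturity, and nothing in the labels says which pools came from separate animals or days. The p-values therefore measure spread between these pools only, and those of limma also draw on the spread of other genes. In a pool, fewer oocytes that hold a transcript and fewer copies per oocyte cannot be told apart.

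Between 1636620 and 12166950 reads per library lay on genes (median 2899468). Both ends of that range were VMAT libraries. VMAT replicate 2 had a size factor of 7.98 and reads above 30 for 55.7% of the genes in the table, VMAT replicate 1 had a size factor of 0.321 and reads above 30 for 18.8%, and the other 10 libraries lay between them. A floor of 3 reads was worth 0.376 to 9.34 in the normalized counts. Of 13 oocyte markers, 7 were named (ZP2, ZP4, GDF9, BMP15, DPPA3, NPM2 and ZAR1), and none of these was at 0 in any library. Their summed normalized count was 9263 to 13329 in VIM, 9444 to 22225 in VMAT and 9936 to 13001 in FR, with DPPA3 as its largest part in every library. Single markers went apart. ZAR1 was at 3.11, 33.4 and 8.25 in VMAT against 115 to 252 in FR, with no overlap, as for 3.19% of all genes tested in VMAT vs. FR. Its exact permutation p was 0.0179, the smallest that this design allows, and its adjusted p from limma was 0.950. GDF9 went the other way, at 4413, 1877 and 2640 in VMAT against 1287 to 1918 in FR. These groups overlapped, with an exact permutation p of 0.0536. BMP15 was at 17.9 and 25.3 in 2 VIM libraries, while its mean was 693 in VMAT and 385 in FR. VMAT replicate 1 had 1 read of ZAR1 and 4 of ZP2. Of 14 cumulus and granulosa markers only HAS2, which makes hyaluronan, was named, with 641 to 2144 in VIM, 254 to 1755 in VMAT and 462 to 1239 in FR. None of 4 blood markers was named, so traces of other cells could be followed through HAS2 alone, and its part in the results was not tested.

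ACTR2 and ARPC2 were present in every library, while ABI1, ARPC3 and ACTR3 went from 30 reads or fewer to 75 reads or more between pools of the same group. No member passed the test after adjustment in any of the 3 comparisons. Values below are normalized counts, which are reads divided by a size factor per library, and reads are given where a level is low. Levels are compared between libraries and groups, and genes are not ranked by level.

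**Figure D1:**
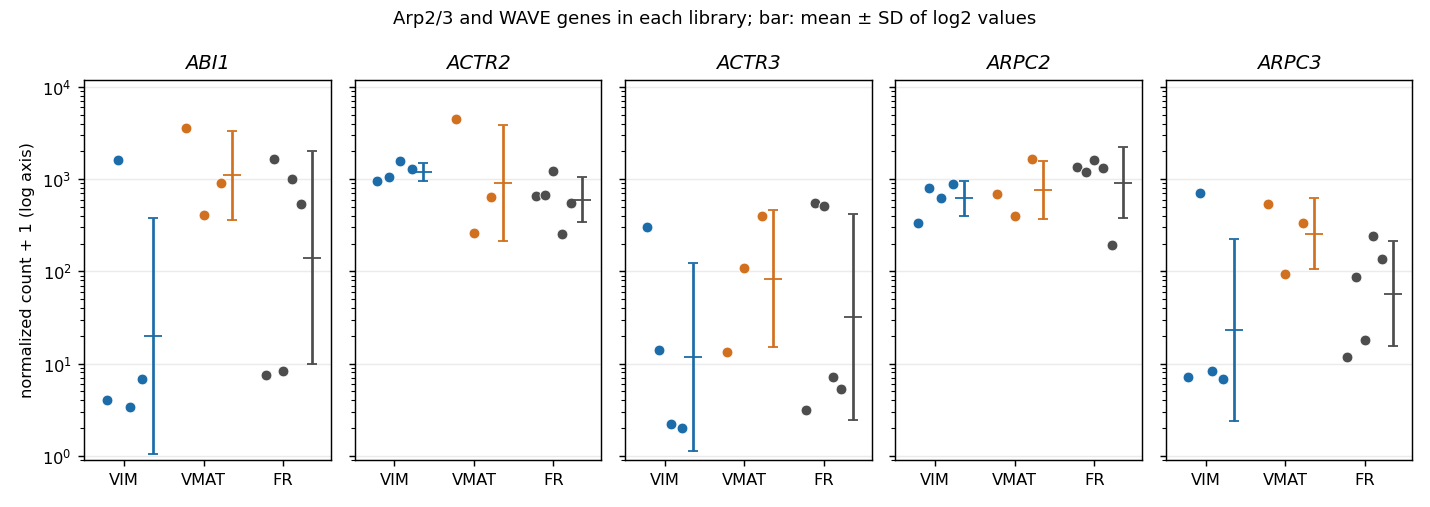
Normalized counts plus 1 (log axis) of the 5 member genes in each of the 12 libraries, with 1 point per pool, grouped and coloured as VIM, VMAT and FR. The bars beside the points are the mean ± SD of the log2 values. ACTR2 and ARPC2 stay at 192 or more in every library, while ABI1, ARPC3 and ACTR3 fall into a high and a low set of libraries inside the VIM and FR groups.

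ACTR2 encodes one of the actin-like subunits that start a branch. Its normalized counts in VIM replicates 1 to 4 were 956, 1058, 1558 and 1286. In VMAT replicates 1 to 3 they were 4493, 258 and 643, and in FR replicates 1 to 5 they were 664, 669, 1231, 254 and 554. Only FR replicate 3 reached into the VIM range, and the VMAT libraries held the highest value of all and one of the lowest. The means were 1215 ± 267 (SD, n = 4) in VIM, 1798 ± 2342 (n = 3) in VMAT and 674 ± 354 (n = 5) in FR. In VIM vs. FR the log2 fold change was 0.99 (SE 0.74), and an exact two-sided permutation test gave p = 0.0476, with 0.00794 as the smallest p that this design allows. That was the smallest of 15 such tests over the members, and over all 7351 genes tested the adjusted p from limma was 0.902. Against FR, VMAT differed by 0.60 (SE 1.06), and this value changed sign with 1 library: it was −0.55 without VMAT replicate 1 and 1.50 without VMAT replicate 2. The difference of VIM from VMAT, 0.39 (SE 1.07), likewise became −0.51 without VMAT replicate 2 and 1.55 without VMAT replicate 1.

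ACTR3 encodes the other actin-like subunit, which stands beside ACTR2 at the foot of the new filament. Its normalized counts were 303, 13.04, 1.21 and 0.978 in VIM, from 493, 8, 1 and 1 reads. In VMAT they were 12.4, 107.8 and 394, from 4, 861 and 334 reads. In FR they were 2.16, 546, 509, 6.05 and 4.30, from 2, 477, 909, 12 and 6 reads. Every group held both high and low libraries, so the groups overlapped over nearly their whole ranges. Reads were above 30 in 1 of 4 VIM, 2 of 3 VMAT and 2 of 5 FR libraries. The means, 79.5 ± 149 in VIM, 171 ± 198 in VMAT and 213 ± 287 in FR, had SDs larger than themselves. The log2 fold changes were −1.45 (SE 2.42) for VIM vs. FR, 1.39 (SE 2.24) for VMAT vs. FR and −2.83 (SE 2.72) for VIM vs. VMAT, with exact permutation p of 0.595, 0.643 and 0.286. Without VIM replicate 1, the only high VIM library, the first and last of these were −3.02 and −4.40. The value of VMAT vs. FR turned to −0.28 with edgeR and −0.29 with DESeq2. Reads that the counting may have split between ACTR3 and its close relative ACTR3B could not be checked.

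ARPC2 encodes a core subunit that holds the complex to the mother filament. Its normalized counts were 335, 795, 624 and 879 in VIM. In VMAT they were 685, 393 and 1653, and in FR they were 1356, 1191, 1600, 1315 and 192. Of the FR libraries, 4 lay above all VIM libraries and the remaining one, FR replicate 5, lay below all others of any group. The means were 658 ± 240.5 in VIM, 910 ± 660 in VMAT and 1131 ± 545 in FR. ARPC2 had log2 fold changes of −0.57 (SE 0.81) for VIM vs. FR, −0.27 (SE 0.99) for VMAT vs. FR and −0.30 (SE 1.21) for VIM vs. VMAT, with exact permutation p of 0.476, 0.821 and 0.686. Without VMAT replicate 2 the value of VMAT vs. FR was 0.21, and without VMAT replicate 3 that of VIM vs. VMAT was 0.25.

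ARPC3 encodes a small subunit next to ACTR3 that helps to hold the complex together. Its normalized counts were 6.14, 704, 7.23 and 5.87 in VIM, from 10, 432, 6 and 6 reads. In VMAT they were 532, 93.6 and 335, from 171, 747 and 284 reads. In FR they were 10.8, 85.8, 16.8, 242 and 137, from 10, 75, 30, 479 and 191 reads. The VMAT libraries were all high, VIM replicate 2 stood alone among the VIM libraries, and the FR libraries lay on both sides. The means were 181 ± 349 in VIM, 320 ± 220 in VMAT and 98.4 ± 95.5 in FR. ARPC3 had log2 fold changes of −1.31 (SE 2.05) for VIM vs. FR, 2.17 (SE 1.75) for VMAT vs. FR and −3.47 (SE 2.27) for VIM vs. VMAT, with exact permutation p of 0.476, 0.143 and 0.143. In VIM vs. FR the mean of the normalized counts and the mean of their log2 values ordered the groups in opposite ways, and edgeR and DESeq2, which weight the counts themselves, gave 0.51 and 0.91. Without VIM replicate 2, the fold change was −2.95 against FR and −5.12 against VMAT.

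ABI1 encodes a scaffold subunit of the WAVE complex that also binds other actin regulators. Its normalized counts were 3.07, 1599, 2.41 and 5.87 in VIM, from 5, 981, 2 and 6 reads. In VMAT they were 3616, 406 and 901, from 1162, 3243 and 764 reads. In FR they were 6.47, 1649, 7.28, 1003 and 542, from 6, 1442, 13, 1988 and 757 reads. All 3 VMAT libraries were high, as were VIM replicate 2 and FR replicates 2, 4 and 5, and nothing lay between 7.28 and 406. The means were 403 ± 798 in VIM, 1641 ± 1728 in VMAT and 642 ± 700 in FR. ABI1 had the largest fold changes of the members, with −2.83 (SE 2.21) for VIM vs. FR, 2.96 (SE 1.59) for VMAT vs. FR and −5.80 (SE 2.03) for VIM vs. VMAT. The count-based tools gave values nearer to 0: −0.98 with edgeR and −0.65 with DESeq2 for VIM vs. FR, 0.91 and 1.35 for VMAT vs. FR, and −1.90 and −2.02 for VIM vs. VMAT. By these tools ABI1 had the largest value for VIM vs. VMAT only. ACTR3 had it for VIM vs. FR (−1.33 and −1.45) and ARPC3 for VMAT vs. FR (1.34 and 1.73). The exact permutation p were 0.310, 0.286 and 0.114, and the smallest that VIM vs. VMAT allows is 0.0286. In VIM vs. VMAT limma gave an unadjusted p of 0.00496 and an adjusted p of 0.967 over 7627 genes. Other limma settings with no library left out gave unadjusted p from 0.00471 to 0.0472. The unadjusted p was 0.131 with edgeR and 0.340 with DESeq2. With each library left out in turn, the values ranged from −4.95 (without VIM replicate 2) to −1.95 (without FR replicate 2) for VIM vs. FR, from 1.90 (without FR replicate 1) to 3.85 (without FR replicate 2) for VMAT vs. FR, and from −7.91 (without VIM replicate 2) to −4.94 (without VMAT replicate 1) for VIM vs. VMAT.

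**Figure D2:**
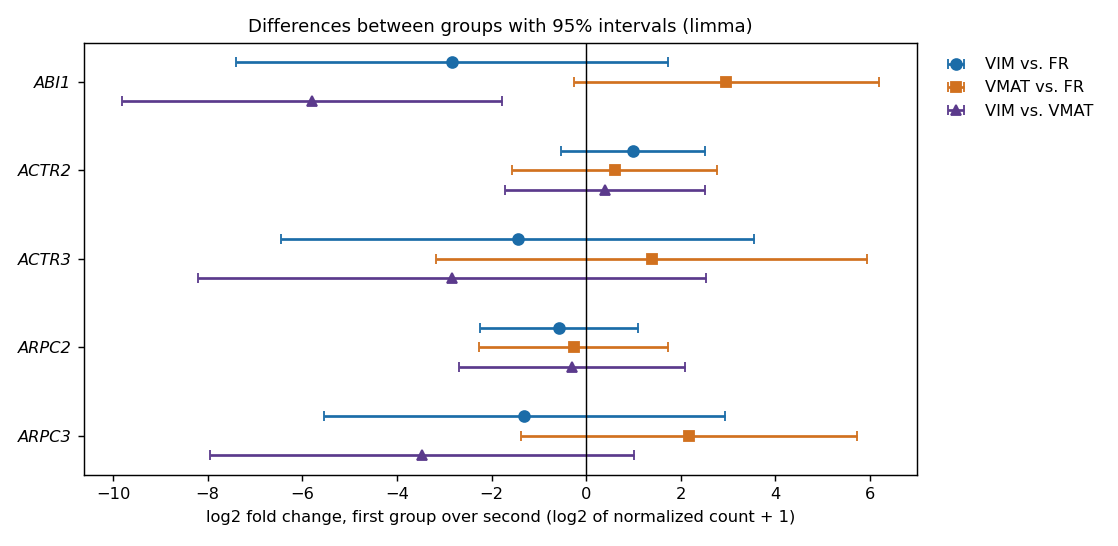
Log2 fold change of each member in the 3 comparisons (points, limma on log2 of the normalized count plus 1) with its 95% confidence interval (bars). Of the 15 intervals 14 hold 0, and those of ACTR2 and ARPC2 are the narrowest.

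With limma, 0 of the 5 members passed the thresholds for a DE gene in any comparison (an adjusted p up to 0.05 together with a log2 fold change of 1 or more either way), against 0% of all genes tested for VIM vs. FR, 0% for VMAT vs. FR and 0% for VIM vs. VMAT. The members' adjusted p lay between 0.902 and 0.999. At an unadjusted p under 0.05, the members counted 0 for VIM vs. FR (background 3.78%), 0 for VMAT vs. FR (3.62%) and 1, ABI1, for VIM vs. VMAT (2.98%). Count-based tools were run on the recovered reads as well. The edgeR quasi-likelihood test called 0 members, where it called 0%, 0.012% and 0.0131% of all genes, and DESeq2 called 0 members, where it called 6.87%, 4.26% and 3.87%. The lowest adjusted p of any member was 0.538 with edgeR and 0.589 with DESeq2. In none of the comparisons did the groups stay apart for any member, against 1.59% of genes for VIM vs. FR, 3.19% for VMAT vs. FR and 4.5% for VIM vs. VMAT. An interval that holds 0 does not show equal levels: that of ABI1 for VIM vs. FR ran from −7.39 to 1.72 and that of ACTR3 from −6.45 to 3.56, while that of ACTR2 ran from −0.53 to 2.52 and that of ARPC2 from −2.24 to 1.103.

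The direction of the fitted differences is given as a description. VIM was below FR for 4 of 5 members, all but ACTR2, against 53.1% of all genes, and VIM was below VMAT for the same 4, against 52.2%. VMAT was below FR for 1, ARPC2, against 49.7%. The members' median log2 fold change was −1.31 for VIM vs. FR, 1.39 for VMAT vs. FR and −2.83 for VIM vs. VMAT, beside −0.12, 0.01 and −0.08 over all genes tested. Their median SE was 2.05, 1.59 and 2.03, beside 1.73, 1.84 and 2.01. On the recovered reads the members' medians were −0.90, 0.89 and −0.82 with edgeR and −0.65, 1.35 and −0.81 with DESeq2, and both tools placed VIM below FR for 3 members, VMAT below FR for 2 and VIM below VMAT for all 5. Both the sizes and the counts of directions thus depended on the scale of the fit. ABI1, ACTR3 and ARPC3 lay more than 1 from 0 on the log2 scale in each comparison, as were 54.6%, 55.9% and 57.6% of all genes. Each group enters 2 of the 3 comparisons, so these values share libraries and do not count separately.

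The members differed among themselves mainly in how far pools of one group lay apart. The SD of the log2 values within groups was 1.04 for ARPC2 and 1.15 for ACTR2, which is larger than in 5.81% and 6.75% of 7395 genes with a mean normalized count of at least 10. It was 2.36 for ARPC3, 3.37 for ACTR3 and 3.63 for ABI1, larger than in 33.7%, 85.0% and 92.8% of genes, where the median was 2.64. With more than 30 reads taken as high, ACTR2 and ARPC2 were high in 12 of 12 libraries, ABI1 and ARPC3 in 7 and ACTR3 in 5. Of the 7395 genes 735 (9.94%) were high in all 12 libraries, and the median gene was high in 4. The members come from the genes with a name, which were high more often: of 2569 such genes 22.7% were high in all 12 libraries, the median was 9 libraries, and 26.4% were high in 6 or fewer, beside 65.7% of the 7395. Among the named genes the within-group SD of ARPC2 and ACTR2 was larger than in 13.2% and 15.1%, and that of ARPC3, ACTR3 and ABI1 than in 46.7%, 86.8% and 94.0%. The number of members that were high ranged from 2 to 5 per library. It was 3, 4, 2 and 2 in VIM, 4, 5 and 5 in VMAT, and 2, 5, 3, 4 and 4 in FR. The deepest library, VMAT replicate 2, was among the 3 with all 5 high. VMAT replicate 3 and FR replicate 2, which also had all 5 high, lay below the median depth, and the shallowest, VMAT replicate 1, had 4.

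**Figure D3:**
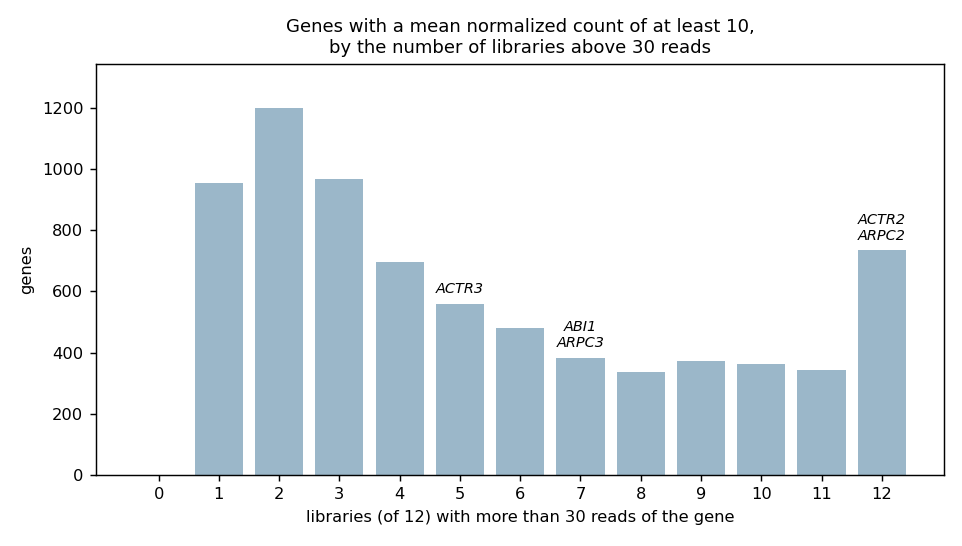
Number of the 7395 genes with a mean normalized count of at least 10 (vertical axis) by the number of libraries in which they had more than 30 reads (horizontal axis), with the members marked. ACTR2 and ARPC2 sit in the class of all 12 libraries, ABI1 and ARPC3 in that of 7 and ACTR3 in that of 5.

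ABI1 and ARPC3, which belong to different complexes, were high in the same 7 libraries and low in the same 5, namely VIM replicates 1, 3 and 4 and FR replicates 1 and 3. In the low libraries ABI1 had 2 to 13 reads and ARPC3 6 to 30, and in the high ones ABI1 had 757 to 3243 and ARPC3 75 to 747. This match was seen in the values and then described, so it carries no test. No other gene of the 7395 was high in exactly these 7 libraries. A shared set was common, however: of 383 genes that were high in exactly 7 libraries, 253 (66.1%) shared their set with at least 1 other gene, and up to 7 genes had one set. With a limit of 10 reads ABI1 and ARPC3 were still on the same side in every library, and with 100 reads they parted in 1, where ARPC3 had 75 reads. The full match depends on the limit. In FR replicate 3 ABI1 had 13 reads and ARPC3 had 30, just at the limit, so a limit between these values would part them there.

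Across all 12 libraries the log2 values of ABI1 and ARPC3 had a Pearson r of 0.95 and a Spearman rho of 0.85, and each was the gene most like the other among 7394. The points share a library, and with it depth and group, and over all genes the median of the highest r with any gene was 0.94, with 36.4% of genes above the value of ABI1 and ARPC3. Within the 7 high libraries r was 0.60 and rho 0.36. The relation was thus mainly that of a high and a low set of libraries. The other pairs of members had r between −0.15 and 0.19, and ACTR3 was on the other side from ABI1 in 6 of 12 libraries. The named genes with the highest r to the remaining members were TBC1D8 for ACTR2 (r = 0.88), VRK3 for ACTR3 (r = 0.85) and SMS, which makes spermine, for ARPC2 (r = 0.84), each over 12 libraries.

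**Figure D4:**
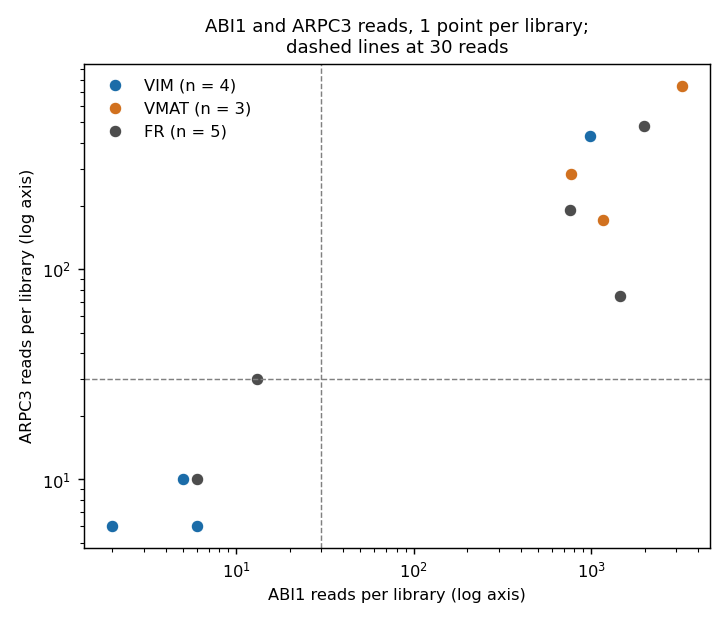
Reads of ARPC3 against reads of ABI1 per library (both log axes), 1 point per library, coloured by group, with dashed lines at 30 reads. The 5 low libraries (3 VIM and 2 FR) and the 7 high ones (1 VIM, 3 VMAT and 3 FR) form separate sets.

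The order of the groups depended on how the members were averaged. For ABI1 and for ARPC2 the order was the same with the mean normalized count and with the mean log2 value, VMAT above FR above VIM for ABI1 and FR above VMAT above VIM for ARPC2. By the median, the order for ARPC2 was FR above VIM above VMAT. For ACTR2, ACTR3 and ARPC3 both means ordered the groups differently. No pair of groups in these orders passed the adjusted test.

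A list of 53 further genes of the pathway was read in the same way, and 18 of them were named and tested. The only further subunit of the Arp2/3 complex among them was ARPC5L, a relative of ARPC5. It had 399.6, 6.52, 1.21 and 4.89 in VIM, 414, 54.7 and 2.36 in VMAT and 8.63, 85.8, 26.9, 6.05 and 153 in FR, and so moved between pools like ARPC3 and ACTR3 with high libraries of its own. The WASF genes encode the part of the WAVE complex that binds Arp2/3. WASF2 was high in all 12 libraries, at 227 to 2293, and WASF1 had 15.6 to 916. WASF3 had more than 30 reads in 6 libraries and ranged from 1.84 to 499. In VIM vs. FR the log2 fold changes of WASF1, WASF2 and WASF3 were −1.44, 0.08 and 0.95, all with adjusted p of at least 0.902 in limma.

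**Figure D5:**
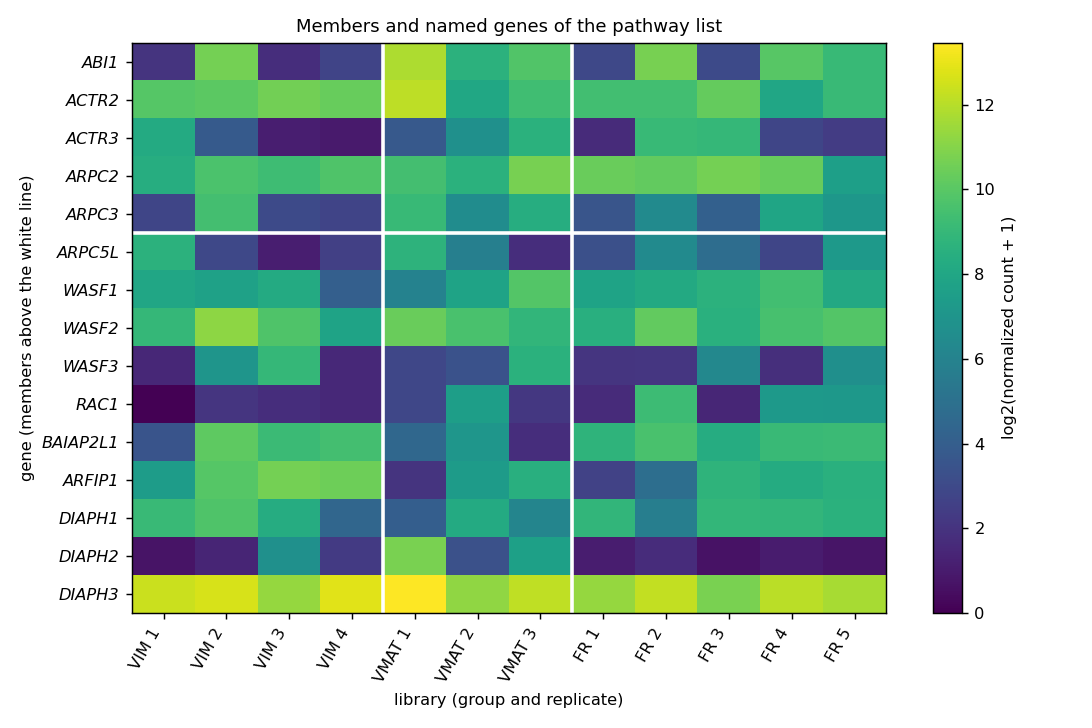
Log2 of the normalized count plus 1 for the 5 members (above the white line) and 10 genes of the pathway list (rows) in the 12 libraries (columns, by group). Genes high throughout, such as ACTR2, ARPC2, WASF2 and DIAPH3, stand beside genes whose high libraries differ from gene to gene.

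RAC1, the GTPase that releases the WAVE complex, had 0 to 2 reads in every VIM library. In VMAT it had 2, 1501 and 3 reads, and in FR 2, 526, 3, 291 and 199. The VIM and VMAT values did not overlap (0 to 3.26 against 3.54 to 188), but the lowest VMAT libraries lay at the floor of 3 reads, so no fold is read from it. DESeq2 called RAC1 for VIM vs. FR (adjusted p = 0.00502), limma (adjusted p = 0.902) and edgeR did not. CDC42, a GTPase that acts through other activators, was high throughout, at 1712 to 7151.

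BAIAP2L1, an adaptor that links membranes to actin, had 21.8, 133 and 2.36 in VMAT, from 7, 1064 and 2 reads. In FR it had 436, 779, 325, 550 and 582, and the groups did not overlap. Its log2 fold change was −4.56 (SE 1.57), with an exact permutation p of 0.0179, the smallest this design allows, and an adjusted p of 0.950 in limma. VMAT replicate 3 lay under the floor of 3 reads, so the size of this fold rests in part on the pseudocount. In VIM it had 10.4, 1128, 569 and 700. ARFIP1, an arfaptin that binds small GTPases of the ARF family, had 174, 978, 1630 and 1442 in VIM, 3.11, 165 and 356 in VMAT and 5.39, 28.6, 438, 312 and 379 in FR. Its log2 fold change was 2.999 (SE 1.36) for VIM vs. FR and 3.68 (SE 1.60) for VIM vs. VMAT, with exact permutation p of 0.0873 and 0.0857. VMAT replicate 1 held 1 read of ARFIP1, so the size of the second fold also rests in part on the pseudocount.

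The DIAPH genes encode formins, which build unbranched filaments. DIAPH2 had 1 or 2 reads in each FR library, against 547, 74 and 173 in VMAT and 1, 1, 88 and 4 in VIM. In VMAT vs. FR the groups did not overlap, with an exact permutation p of 0.0179. DESeq2 called it (adjusted p = 2.15e-05), while limma (adjusted p = 0.950) and edgeR did not. Since FR lay under the floor of 3 reads, its fold rests on the pseudocount and is not given. DIAPH1 had 15.6 to 862 over the 12 libraries, and DIAPH3 was high in all of them, at 1715 to 11308.

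Over the whole list of 18, limma called 0 genes in any comparison and edgeR 0, while DESeq2 called 1 for VIM vs. FR (6.87% of all genes), 1 for VMAT vs. FR (4.26%) and 0 for VIM vs. VMAT (3.87%). In limma 9 were higher and 9 lower for VIM vs. FR, 9 and 9 for VMAT vs. FR, and 7 and 11 for VIM vs. VMAT, where 53.1%, 49.7% and 52.2% of all genes were lower. The median log2 fold changes were −0.12, 0.09 and −0.18. At an unadjusted p under 0.05 the list counted 1 (ARFIP1), 2 (BAIAP2L1 and DIAPH2) and 1 (ARFIP1), against 3.78%, 3.62% and 2.98% of all genes. Groups that did not overlap numbered 0, 2 (BAIAP2L1 and DIAPH2) and 1 (RAC1), against 1.59%, 3.19% and 4.5%. With 18 genes, a count of 1 is near these shares. The counts of 2 for VMAT vs. FR, from the same genes under both rules, lay above them and were not tested. Of the 18, 6 were high in all 12 libraries (WASF2, CDC42, CARMIL1, DIAPH3, CFL2 and TMSB4X), beside 22.7% of the 2569 named genes.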

How the data were processed

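Messenger RNA of 12 pools of oocytes (4 VIM, 3 VMAT and 5 FR) was analysed. According to the study's methods and processing notes, the authors trimmed the reads with Trim Galore and mapped them to EquCab3.0 with STAR. They handled the molecular identifiers with UMI-tools and counted with RSEM. Of 5 replicates per group, the paper kept 4 of VIM, 4 of VMAT and 5 of FR after RNA quality control. It then left out 1 more VMAT sample for its quality metrics. The values deposited by the authors are a signal: for each library, the counts over its DESeq2 size factor. In each library 100% of them were whole multiples of one step (within 0.01), which gave back whole reads. Every sample column was used.

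Each comparison was fitted on its own groups with limma 3.58.1 in R 4.3.3 (eBayes with trend) on log2 of the value plus 1, for genes above 0 in at least as many libraries as the smaller group has. The eBayes step draws the variance of a gene toward that of genes of like level. The SE, interval and p of limma thus do not rest on that gene's own pools alone. Adjusted p-values are Benjamini-Hochberg over all genes tested. DE meant an adjusted p up to 0.05 and a log2 fold change of 1 or more either way. Fold changes are on the log2(value + 1) scale, which understates those of low genes. Single genes were also given an exact two-sided permutation test. The recovered reads were used for edgeR 4.0.16, DESeq2 1.42.0 and the limit of 30 reads. Floors in reads cover counting error only.

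The members, lists and tests were chosen with earlier results of these data known. Names came from supplementary files held in part, which pair 2569 identifiers with a name and were made from these data. Their fold changes and p-values are the authors' comparisons and were not used. Of the pathway list, the text names the Arp2/3 and WAVE genes and, per comparison, the 3 with the smallest p, the genes past the thresholds, and a few more chosen after their values were seen (CDC42, CARMIL1, CFL2 and TMSB4X). For likeness, each member is given the named gene with the highest r. The alternatives covered pseudocounts, filters, scaling, the fit, a replicate block, other tools and left-out libraries.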

Additional observations from a re-analysis of the deposited data

Results flagged for a closer look

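Within groups of 4 or 5 libraries, the distance of the highest or lowest library from its nearest neighbour was compared with the whole range by Dixon's 95% limit, for the members, the other named genes and the depth. Of 32 groups tested, 7 held such a library. For normal values chance gives about 1 in 20 groups, but normalized counts that span a wide range are not normal and the genes share libraries, so the number by chance is not known here. On the log2 scale 6 of the 32 groups held such a library. Of the 7, 3 were still past the limit (ABI1, ARPC3 and DIAPH1). Past it on the log2 scale only were the lowest libraries of ARPC2 (FR replicate 5), WASF1 (VIM replicate 4) and BAIAP2L1 (VIM replicate 1).

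Among the members, ABI1 was at 1599 in VIM replicate 2, with the other VIM libraries at 2.41 to 5.87. ARPC3 was at 704 in the same library, with the others at 5.87 to 7.23. ACTR3 was at 303 in VIM replicate 1, with the others at 0.978 to 13.04. On the normalized counts, ACTR2 and ARPC2 had no such library in VIM or FR. On the log2 scale ARPC2 had one, FR replicate 5, at 7.59 with the other FR libraries at 10.22 to 10.64.

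Among the other genes of the pathway, ARPC5L was at 399.6 in VIM replicate 1, with the others at 1.21 to 6.52. DIAPH2 was at 106 in VIM replicate 3, with the others at 0.614 to 3.91. RAC1 was at 602 in FR replicate 2, with the others at 1.68 to 147. DIAPH1 was at 53.8 in FR replicate 2, with the others at 389 to 484.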

How the results depend on the processing

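Leaving out each library in turn kept the number of DE genes at 0 in each comparison (24 fits). The number of DE genes for VIM vs. FR was 3 without a filter on low values, 3 with eBayes without trend and 505 with DESeq2 (173 higher and 332 lower). In VMAT vs. FR it was 1 with edgeR and 354 with DESeq2 (180 and 174), and for VIM vs. VMAT 1 and 295 (128 and 167). No member was among these calls. Other settings kept 0.

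Filters, the fit of all samples at once and eBayes without trend leave a fold change as it is, so they cannot reverse it. Of 165 alternative fold changes of members, other than left-out libraries, 158 kept their direction, with those that could not reverse among them. Those that reversed were ARPC3 for VIM vs. FR (0.51 with edgeR, 0.91 with DESeq2), ACTR3 for VMAT vs. FR (−0.28 and −0.29) and ACTR2 for VIM vs. VMAT (−0.11 and −0.57), plus ACTR3 for VMAT vs. FR with the replicate block. With libraries left out, ACTR2 ranged from −0.55 to 1.50 for VMAT vs. FR and from −0.51 to 1.55 for VIM vs. VMAT, and ARPC2 from −0.83 to 0.21 and from −0.78 to 0.25. The causes were not tested. With equal column totals the median of all genes was −0.20 for VIM vs. FR and −0.19 for VIM vs. VMAT, and without VMAT replicate 2 it was −0.41 for VMAT vs. FR and 0.26 for VIM vs. VMAT. With a limit of 100 reads ABI1 and ARPC3 parted in 1 library, a setting chosen after seeing the data.

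In the pathway list, the reversed values for VIM vs. FR were WASF2 with equal totals (−0.044) and quantile normalization (−0.097), ARPC5L with edgeR (0.94) and DESeq2 (0.83), DIAPH1 with edgeR (0.081) and DESeq2 (0.26) and BAIAP2L1 with DESeq2 (0.17). In VMAT vs. FR they were ARPC5L with quantile normalization (−0.015) and WASF1 with quantile normalization (0.16), edgeR (0.071) and DESeq2 (0.14). In VIM vs. VMAT they were WASF2 with edgeR (0.12) and DESeq2 (0.21), WASF3 with a pseudocount of 10 (0.17), quantile normalization (0.52), edgeR (0.14) and DESeq2 (0.22), and DIAPH3 with equal totals (−0.039), quantile normalization (−0.0051) and DESeq2 (−0.16).

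With libraries left out, values for VIM vs. FR ranged from −0.50 to 0.61 for WASF2, −0.45 to 2.04 for WASF3, −1.63 to 0.58 for BAIAP2L1 and −0.91 to 0.87 for DIAPH1. In VMAT vs. FR they ranged from −1.14 to 2.33 for ARPC5L, −1.54 to 0.39 for WASF1, −0.12 to 0.63 for WASF2, −0.69 to 2.18 for WASF3 and −1.93 to 1.29 for ARFIP1. In VIM vs. VMAT they ranged from −3.43 to 0.040 for ARPC5L, −1.83 to 0.10 for WASF1, −0.76 to 0.35 for WASF2, −1.58 to 1.64 for WASF3 and −0.51 to 0.60 for DIAPH3.

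Replicate numbers are shared between groups, but deviations of same-numbered libraries correlated at only −0.0384 to 0.0106 over 10 pairs. Of the libraries, 2 of 8, 0 of 6 and 0 of 6 correlated best with their own number, so no pairing was seen in the values. With so few pools per group this cannot show whether same-numbered pools shared a collection or maturation day. The labels do not say so, and the paper states that FR and VMAT oocytes were matured together. With the replicate block the number of DE genes stayed 0 in each comparison, and unadjusted p under 0.05 counted 243, 174 and 197 genes in place of 278, 301 and 227. The block gave −0.20 for ACTR3, 0.094 for RAC1 and 0.52 for ARFIP1 for VMAT vs. FR, and 0.097 for WASF1, 0.35 for WASF2, 0.88 for WASF3 and −0.17 for DIAPH3 for VIM vs. VMAT, each of the opposite sign to the value without it. A floor of 3 reads is worth up to 9.34 in the shallowest library.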

Other observations

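The balance of the 2 steadily present subunits was looked at after their values were seen, and is given as values. ACTR2 reads per ARPC2 read, a ratio within each library that no size factor touches, were 2.86, 1.33, 2.50 and 1.46 in VIM, 6.56, 0.657 and 0.389 in VMAT and 0.490, 0.562, 0.769, 0.193 and 2.89 in FR. The VIM range lay inside those of VMAT and FR, but only through VMAT replicate 1 (6.56) and FR replicate 5 (2.89). The other VMAT and FR libraries, at 0.193 to 0.769, lay below every VIM library. With all libraries kept the groups overlapped. Setting libraries aside after their values were seen carries no test, and how often other pairs of genes part in this way was not looked at. The ratio is compared between libraries only, since its level also depends on how well each transcript was captured.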
